A study of Bos taurus with 16 samples.

Results

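The HNRNP and RBM genes encode 2 large groups of RNA-binding proteins, and 56 of the 18444 genes that the array measured under a single symbol belonged to them. They were all transcript clusters whose single platform gene symbol starts with HNRNP (20 genes) or with RBM followed by a number (36 genes). A transcript cluster is the array's unit of a gene, many probes condensed into 1 value. Each of the 56 genes had 1 cluster, and all 56 kept their symbol in the current RefSeq table by gene ID. Another cluster shared by CPNE1 and RBM12 was left out because it carries several symbols. Spleen RNA came from 16 crossbred steers, castrated male cattle, with 1 Affymetrix Bovine 1.1 ST array per steer. Each group held 4 steers. The groups were high gain-high intake and high gain-low intake, and, on the low gain side, low gain-high intake plus low gain-low intake. They are named for body weight gain and feed intake over an 84-day trial on a shared concentrate diet that began at about a year of age. The steers were picked as the extremes of their quadrant, so the groups are selected phenotypes and not treatments. Breed composition differed between the groups, and 1 animal of each group was slaughtered on each of 4 days. The breed, day, array strip and RNA integrity of each steer are not in the sources used here and could not enter the model.

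Heterogeneous nuclear ribonucleoproteins (hnRNPs) coat a new transcript in the nucleus and take part in its splicing, export, stability and translation. RBM is a naming class for proteins with an RNA recognition motif, and it holds splicing factors, parts of the exon junction complex and of the complex that methylates adenosine in mRNA, and regulators of mRNA stability. In lymphoid tissue these proteins are known for splicing CD45 and for controlling the lifetime of cytokine mRNAs. Many hnRNP genes are expressed in nearly every cell type, so a whole spleen sample mixes the transcripts of B cells, T cells, macrophages, blood cells, vessels and capsule. In such bulk RNA, fewer cells of a type and less RNA per cell cannot be told apart.

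All values are log2 values as deposited. The authors stretched the signal distribution before summarising it, which widens differences between arrays, so a difference here is on a stretched log2 scale. Array medians lay between 8.23 and 8.36, and any pair of arrays correlated at 0.955 to 0.986 across features. Of the 56 genes, 50 had a mean above the median feature mean of 8.29, while RBM11, RBM20, RBM24, RBM34, RBM44 and RBM46 did not. No value of the 56 genes came within 0.05 of the array ceiling. The spleen label was borne out by B cell (5 of 5 measured), T cell (6 of 6) and macrophage (6 of 6) markers above the median feature level, and 0 of 5 markers of the neighbouring exocrine pancreas reached it. A steer's number only names it within its group.

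No HNRNP or RBM gene passed a p of 0.05 after Benjamini-Hochberg adjustment over the 24651 features tested, and no other feature did either, in limma, in any of the 8 comparisons. The genes are therefore described at an unadjusted p under 0.05, called here, beside the share of all features called by the same rule. In the F test over the 4 groups, 3 of the 56 genes were called (HNRNPH1, RBM18 and RBM4B), or 5.36%, against 4.71% of all features. For gain (high minus low), RBM43 and RBM47 were higher and HNRNPH1 and HNRNPA2B1 lower, 7.14% against 6.06% of all features. For intake (high minus low) 0 genes were called, at an unadjusted p as well, against 3.4% of all features, while ordinary least squares called 1. These shares were near those of all features. The gain by intake interaction, the difference by intake among high gain steers minus the one among low gain steers, called 5 genes, 8.93% against 4.64% of all features. All 5 (RBM4B, RBM18, RBM4, HNRNPA0 and HNRNPH1) were positive, that is higher on average in the 2 groups where gain and intake were both high or both low. Of all features, 2.46% were called with a positive interaction, and 47.2% had a positive interaction whether called or not.

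Next, single groups were compared with the average of the remaining 3. In the high gain-low intake steers 6 genes were called, 10.7% against 5.59% of all features, and all 6 were lower, against 2.84% of all features called lower. They were HNRNPH1, RBM4, HNRNPA2B1, HNRNPC, HNRNPA3 and RBM44. In the low gain-low intake steers 3 genes were called, HNRNPH1, HNRNPA2B1 and HNRNPA3, 5.36% against 5.49% of all features, and all 3 were higher, against 2.96% of all features called higher. The high gain-high intake comparison called RBM18 and RBM47, both higher, 3.57% against 3.48% of all features. The low gain-high intake comparison called RBM18 as lower and RBM24 as higher, 3.57% against 4.45%. For none of the 56 genes did all 4 steers of a group lie above or below the other 12, which happened for 0.0771% of all features for high gain-high intake steers, 0.105% for high gain-low intake steers, 0.166% for low gain-low intake steers and 0.0933% for low gain-high intake steers. The comparisons share steers, so HNRNPH1, low in one group and high in another, is counted in several of them. Separation of a single pair of groups, described below for HNRNPH1, HNRNPA3 and RBM4B, was not counted over all features and has no such share beside it.

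**Figure D1:**
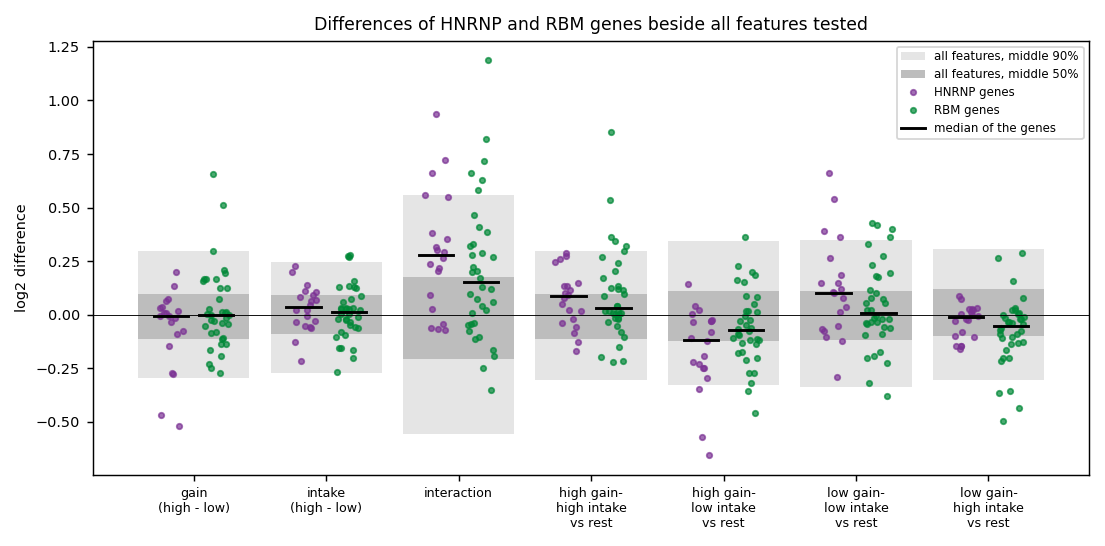
Log2 differences (y axis) of the 20 HNRNP and 36 RBM genes in each of the 7 contrasts (x axis), 1 point per gene with the median as a black bar, over grey bands that hold the middle 50% (dark) and 90% (light) of all 24651 features. The medians of both families lie above the band's centre for the interaction, 0.28 for HNRNP and 0.15 for RBM genes, while they stay near 0 for gain and intake.

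The interaction was positive for 42 of the 56 genes (75.0%), with a median of 0.21, against 47.2% of all features and a median of -0.02. Features at a mean of 12 or more had a median of 0.04. The HNRNP genes had 16 of 20 positive and a median of 0.28, and the RBM genes 26 of 36 and a median of 0.15. In the high gain-low intake steers 40 of the 56 genes had a difference below 0, with a median of -0.08, against -0.01 for all features. This median was -0.04, with 32 genes below 0, once high gain-low intake steer 2 was left out, and the interaction median was then 0.14. Averaged over the 20 HNRNP genes, the steers lay between 13.66 and 14.08 in the high gain-low intake group, against 14.07 to 14.21 in the high gain-high intake, 14.08 to 14.23 in the low gain-low intake and 13.93 to 14.08 in the low gain-high intake group. Averaged over the 36 RBM genes, they lay between 10.47 and 10.67 in the high gain-low intake group, against 10.67 to 10.75 in the high gain-high intake, 10.62 to 10.71 in the low gain-low intake and 10.54 to 10.66 in the low gain-high intake group. High gain-low intake steer 2 gave the lowest mean of both families. It was the lowest of its group for 26 of the 56 genes (46.4%), 13 of them HNRNP genes, against 22.4% of all features. Its macrophage marker mean of 12.60 and erythroid marker mean of 7.44 were also the lowest of the 16 steers, and their part in the result was not tested. Some marker lists had interactions of 1 sign as well, while B cell, neutrophil, platelet and proliferation markers had both signs. All 5 measured exocrine pancreas markers, none above the median feature level, were negative (median -0.18). The 4 smooth muscle markers were positive (median 0.14). All 6 T cell markers were positive, with a median of 0.35 and none called, and all 5 measured erythroid markers were negative, with a median of -0.36 and HBA, an alpha globin, called at -3.55 (unadjusted p = 0.0369). Only 2 of these 5 erythroid markers lay above the median feature level, so their mean includes dim genes. Macrophage markers had a median interaction of -0.33, with 4 of 6 negative and none called. All 4 measured smooth muscle markers lay below 0 in the high gain-low intake steers, with a median of -0.61 and none called. They lay below 0 in the low gain-low intake steers as well (median -0.36). Their intake difference was above 0 for all 4, with a median of 0.71 and MYH11 called. PF4, a platelet chemokine, was called higher in the high gain-low intake steers by 0.96 (unadjusted p = 0.0292 in limma). The other 4 of 5 measured platelet markers were lower there, and the median of the 5 was -0.08. The part of these markers in the interaction and high gain-low intake results was not tested.

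**Figure D2:**
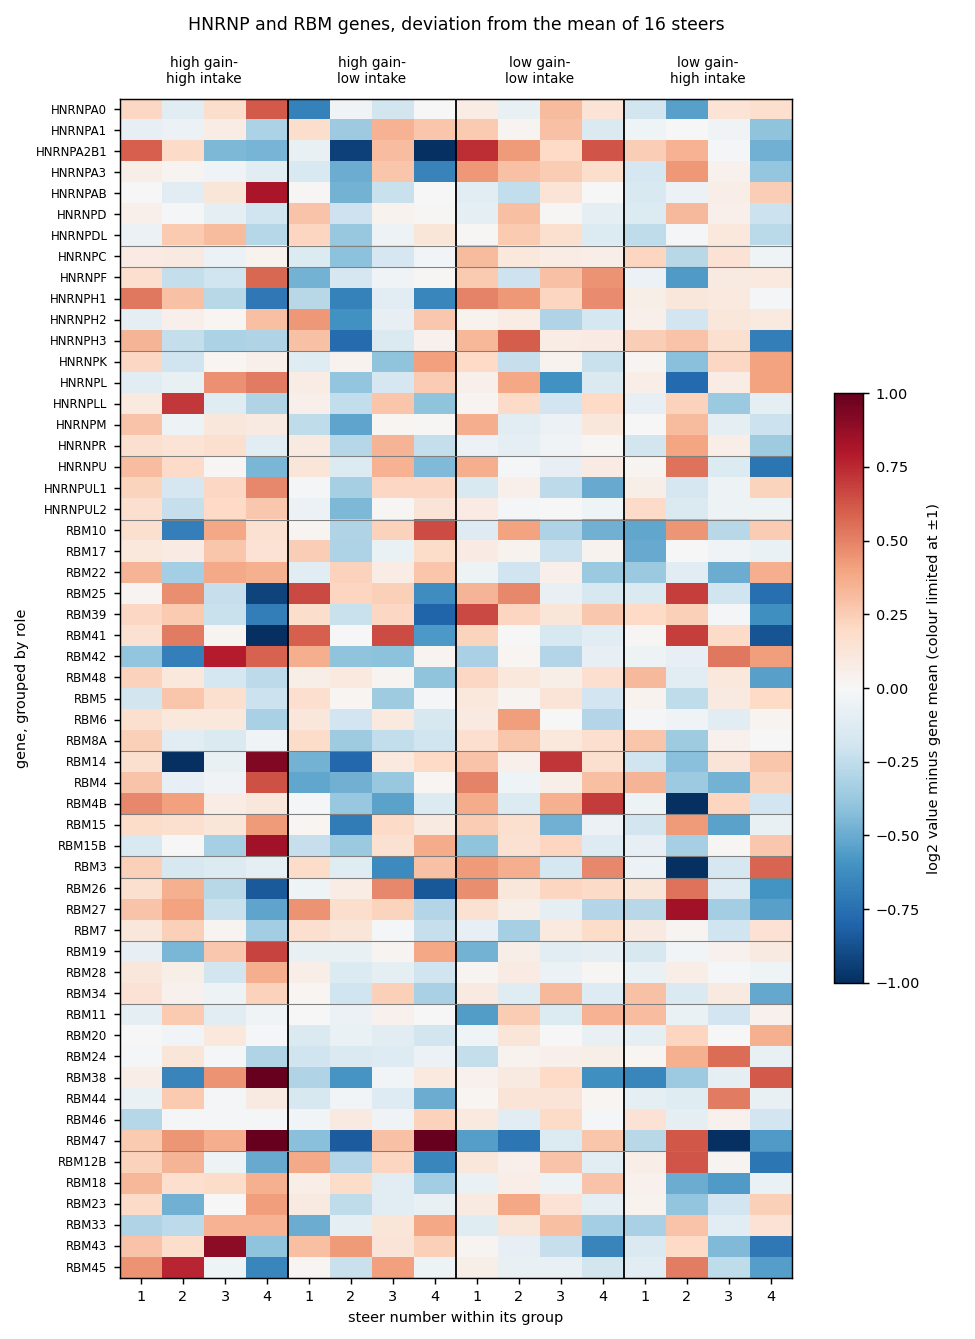
Log2 value of each of the 56 genes (rows, grouped by role) in each of the 16 steers (columns) minus the mean of the gene over the 16 steers. Colour is limited at ±1 (red above the mean, blue below). Steer 2 of the high gain-low intake group is blue for many HNRNP genes, and steer 4 of every group but low gain-low intake is blue for RBM25, RBM26, RBM39 and RBM41.

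Much of the variation among the genes lay between steers of the same group. In each of 3 groups, all but low gain-low intake, steer 4 had the lowest value of its group for the same 10 genes, HNRNPA2B1, HNRNPA3, HNRNPU, RBM12B, RBM25, RBM26, RBM27, RBM39, RBM41 and RBM48. It had the highest value of its group for 7 others, HNRNPA0, HNRNPF, HNRNPL, RBM14, RBM15B, RBM19 and RBM38. These steers were noticed after their values were seen, and nothing in the labels links them. The shares were 17.9% and 12.5% of the 56 genes, against 6.82% and 5.90% of all features. RBM25, a splicing factor that also affects apoptosis genes, had 14.36, 14.80, 14.10 and 13.41 in high gain-high intake steers 1 to 4, 14.99, 14.55, 14.57 and 13.71 in high gain-low intake, 14.67, 14.81, 14.26 and 14.17 in low gain-low intake and 14.19, 15.02, 14.13 and 13.58 in low gain-high intake steers. RBM38, a target of p53 that controls mRNA stability, reached 13.68 in high gain-high intake steer 4, while the other 15 steers lay between 11.27 and 12.54. Neither gene was called in any comparison.

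HNRNPH1, which binds runs of guanine and regulates alternative splicing, was the gene called most often. Its values were 17.75, 17.69, 17.47 and 17.73 in the low gain-low intake steers, against 17.78, 17.55, 16.98 and 16.54 in high gain-high intake, 16.98, 16.58, 17.15 and 16.60 in high gain-low intake and 17.31, 17.37, 17.35 and 17.24 in the low gain-high intake steers. Each low gain-low intake steer was above every steer of the high gain-low intake group and of the low gain-high intake group, and only high gain-high intake steers 1 and 2 reached their range. The 4 low gain-high intake steers lay within 0.13 of each other, while the high gain-high intake steers spanned 1.24. The low gain-low intake steers were higher by 0.54 (standard error, SE, 0.18, adjusted p = 0.743 in limma, exact permutation p = 0.017). The high gain-low intake difference was -0.57 (SE 0.18, adjusted p = 0.863, exact permutation p = 0.0121). For gain, the 8 high gain steers averaged 17.02 and the 8 low gain steers 17.49, a difference of -0.47 (SE 0.15, adjusted p = 0.757, exact permutation p = 0.0222). Of the 8 high gain steers, 6 lay below every low gain steer. These 3 differences stayed called when any single steer was left out. The interaction of 0.72 (SE 0.31) had an exact permutation p of 0.0853. It was lost without any of 7 steers (difference 0.54 to 0.70), which were steers 1 and 2 of high gain-high intake, 2 and 4 of high gain-low intake, 1 and 4 of low gain-low intake and 4 of low gain-high intake.

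The relatives of HNRNPH1 gave smaller differences. HNRNPF, which binds the same guanine-rich sites, had a low gain-low intake difference of 0.26, a high gain-low intake difference of -0.22 and an interaction of 0.55, and none was called. HNRNPH2 and HNRNPH3 were not called in any comparison either. HNRNPH1 and HNRNPH2 are close in sequence, and the array could mix their signals. The 4 genes of this branch had a median interaction of 0.42, with 3 of 4 positive.

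HNRNPA2B1 takes part in splicing, in the transport of mRNA and in the sorting of microRNAs into exosomes. It had 16.29, 15.98, 15.75 and 16.18 in the low gain-low intake steers, against 16.15, 15.74, 15.10 and 15.09 in high gain-high intake, 15.48, 14.62, 15.86 and 14.28 in high gain-low intake and 15.80, 15.90, 15.53 and 15.07 in the low gain-high intake steers. Low gain-low intake steers 1 and 4 lay above all 12 others, and high gain-low intake steers 2 and 4 lay below all others. The low gain-low intake difference was 0.66 (SE 0.27, adjusted p = 0.833 in limma, exact permutation p = 0.0368). The high gain-low intake difference was -0.65 (SE 0.27, exact permutation p = 0.0418). For gain the means were 15.29 in high gain and 15.81 in low gain steers, a difference of -0.52 (SE 0.23, exact permutation p = 0.0674). The low gain-low intake call was lost without steer 1 (unadjusted p = 0.0765) or steer 4 (0.063) of that group. The high gain-low intake call was lost without steer 2 (difference -0.51) or steer 4 (difference -0.39), and the gain call was lost without any of 10 steers (difference -0.53 to -0.39). It held only without steers 1 or 2 of high gain-high intake, 1 or 3 of high gain-low intake, 3 of low gain-low intake or 4 of low gain-high intake.

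HNRNPA3, an hnRNP of the same A/B branch, showed a like order. Its values were 16.40, 16.26, 16.22 and 16.14 in the low gain-low intake steers, against 16.02, 15.99, 15.93 and 15.86 in high gain-high intake, 15.81, 15.47, 16.24 and 15.30 in high gain-low intake and 15.80, 16.40, 16.01 and 15.58 in the low gain-high intake steers. Each low gain-low intake steer was above each high gain-high intake steer, while high gain-low intake steer 3 and low gain-high intake steer 2 fell among them. The low gain-low intake difference was 0.39 (SE 0.16, adjusted p = 0.838 in limma, exact permutation p = 0.0291). It was lost without low gain-low intake steer 1 (unadjusted p = 0.0785) or steer 2 (0.0513). The high gain-low intake difference of -0.35 (SE 0.16, exact permutation p = 0.0549) was -0.21 without high gain-low intake steer 4 and was lost without any of 11 steers. It held only without steer 4 of high gain-high intake, 3 of high gain-low intake, 4 of low gain-low intake, and 1 or 4 of low gain-high intake. On all 16 steers this call was also lost under median centring, quantile normalization, ordinary least squares and an intensity trend with robust moderation. Array weights and the restriction to features above the median level lost it too.

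**Figure D3:**
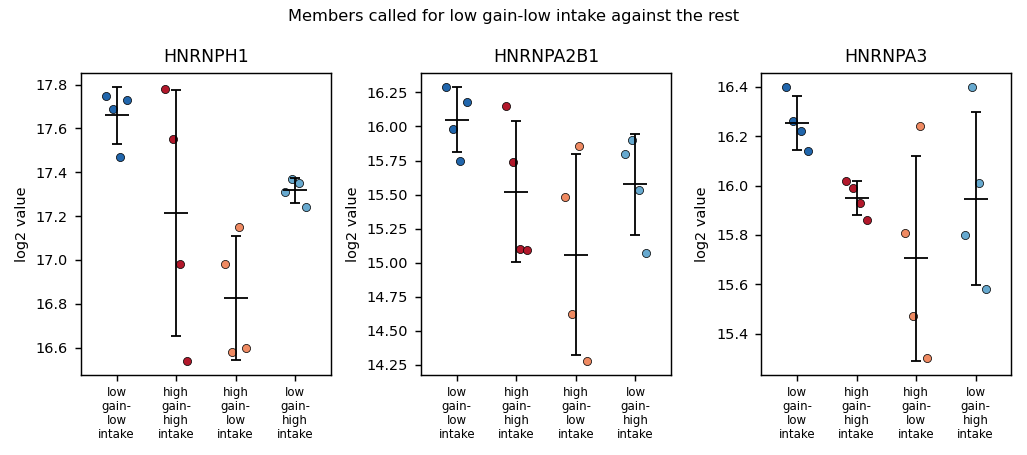
Log2 values (y axis) of HNRNPH1, HNRNPA2B1 and HNRNPA3 by group (x axis), 1 point per steer in order of its number, with the group mean and SD (bars, n = 4). The low gain-low intake steers are high and close together in all 3 panels, with 17.47 to 17.75 for HNRNPH1, and the high gain-low intake group holds the lowest steer for HNRNPA2B1 (14.28) and HNRNPA3 (15.30).

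Heat shock genes were higher in the low gain-low intake steers too, as the paper reports from the same arrays. The 6 genes here were chosen with earlier results of these data known, so their calls in the low gain-low intake steers are not independent evidence. The mean of HSPH1, HSPA8, HSP90AA1, DNAJB1, BAG3 and HSPA4 lay between 14.00 and 15.62 in these steers, against 13.07 to 14.02 in the high gain-high intake, 12.82 to 13.54 in the high gain-low intake and 13.10 to 13.21 in the low gain-high intake steers. All 6 heat shock genes were called higher in the low gain-low intake steers and positive in the interaction, against 2.96% and 2.46% of all features. The limma adjusted p of the 6 genes in the low gain-low intake comparison lay between 0.14 (HSPH1) and 0.74 (HSPA8). Their part in the HNRNPH1, HNRNPA2B1, HNRNPA3 and interaction results was not tested. The macrophage markers of the low gain-low intake steers spanned 12.70 to 13.62, against 13.24 to 13.86 in the high gain-high intake, 12.60 to 13.89 in the high gain-low intake and 12.85 to 13.92 in the low gain-high intake steers, and the marker means of B and T cells overlapped between all groups, although the interaction was positive for all 6 T cell markers.

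Other members of the A/B and D branches were not called in the low gain-low intake comparison. HNRNPA1, known for its part in splice site choice, had differences of 0.15 in low gain-low intake and 0.14 in high gain-low intake steers and an intake difference of -0.22 (SE 0.12, unadjusted p = 0.083). Many processed copies of HNRNPA1 and HNRNPA3 lie in mammalian genomes, so their probes could read more than 1 locus. HNRNPD, known as AUF1 and for the decay of mRNAs with AU-rich elements, had differences between -0.08 and 0.04 in the 7 contrasts. It lies next to HNRNPDL in the RefSeq gene order, and neither was called. HNRNPC, which packs nascent RNA and binds uridine tracts, had a lower value in high gain-low intake steers (difference -0.25, standard error 0.10, exact permutation p = 0.0148). It had 13.97, 13.70, 13.94 and 14.08 there, against 14.05 to 14.20 in the high gain-high intake, 14.17 to 14.42 in the low gain-low intake and 13.83 to 14.32 in the low gain-high intake steers. The call was lost without high gain-low intake steer 2 (difference -0.17) or steer 3 (difference -0.25, unadjusted p = 0.0535). On all 16 steers it was lost under an intensity trend with robust moderation (unadjusted p = 0.0975 in limma).

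The K, L, M and R branches and the U branch held no called gene. The contrasts called 3.4% to 6.06% of all features, so the absence of calls among so few genes does not set these branches apart. HNRNPK, which binds cytosine-rich RNA and DNA, had differences between -0.07 and 0.07 in the 7 contrasts. HNRNPL, a regulator of CD45 splicing in T cells, had a high gain-high intake difference of 0.26 and an interaction of 0.24. HNRNPM, a splicing regulator, had a high gain-low intake difference of -0.25 (unadjusted p = 0.072) and an interaction of 0.38. HNRNPU, a nuclear scaffold protein, had an interaction of 0.20 (unadjusted p = 0.565) and its 3 lowest values in high gain-high intake steer 4 (15.72), in steer 4 of the high gain-low intake group (15.74) and in low gain-high intake steer 4 (15.45). All 5 genes of the K, L, M and R branches had differences below 0 in the high gain-low intake steers, between -0.25 and -0.03. Of all 24651 features, 12645 also lay below 0 there.

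RBM4B had the largest interaction of the 56 genes. RBM4 and RBM4B are near-identical neighbours that regulate alternative splicing and translation, and RBM14, a transcriptional coactivator found in paraspeckles, lies beside them. RBM4B had 9.35, 9.28, 8.94 and 8.98 in the high gain-high intake and 9.24, 8.73, 9.22 and 9.57 in the low gain-low intake steers, against 8.85, 8.49, 8.33 and 8.73 in the high gain-low intake and 8.82, 7.59, 9.08 and 8.68 in the low gain-high intake steers. Of the 8 steers of the first pair of groups, 5 lay above all 8 of the other pair. Every high gain-high intake steer lay above every high gain-low intake steer, whereas the low gain groups overlapped. The interaction was 1.19 (SE 0.38, adjusted p = 1 in limma, exact permutation p = 0.0028), and without single steers it lay between 0.87 and 1.37 and stayed called.

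RBM4 had 11.67, 11.30, 11.35 and 12.02 in the high gain-high intake and 11.88, 11.34, 11.44 and 11.68 in the low gain-low intake steers, against 10.86, 10.90, 11.00 and 11.40 in the high gain-low intake and 11.72, 11.02, 10.91 and 11.61 in the low gain-high intake steers. High gain-low intake steers 1 and 2 lay below all 12 steers of the other groups. The low gain-high intake steers fell into a high and a low pair, and the groups overlapped. The interaction was 0.82 (SE 0.30, exact permutation p = 0.0202). The high gain-low intake difference was -0.46 (SE 0.17, exact permutation p = 0.0286), and it was lost without steer 1 (unadjusted p = 0.0652) or steer 2 (0.0593) of that group. RBM14 had an interaction of 0.58 and a low gain-low intake difference of 0.40 and was not called. As RBM4 and RBM4B share much of their sequence, their probes may read both genes, and the pair is not 2 independent results.

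RBM18, whose function is little described, had 11.18, 11.01, 11.03 and 11.20 in the high gain-high intake and 10.78, 10.91, 10.79 and 11.13 in the low gain-low intake steers, against 10.91, 11.03, 10.74 and 10.50 in the high gain-low intake and 10.89, 10.35, 10.28 and 10.78 in the low gain-high intake steers. Low gain-high intake steers 2 and 3 lay below all 14 others. The interaction was 0.63 (SE 0.22, adjusted p = 1 in limma, exact permutation p = 0.0141). The high gain-high intake steers were higher by 0.34 (SE 0.13, exact permutation p = 0.0236), and the low gain-high intake difference was -0.36 (SE 0.13, exact permutation p = 0.0143). The high gain-high intake call was lost without steer 4 (unadjusted p = 0.0506), and the low gain-high intake call without steer 2 (0.0645) or steer 3 (0.0776).

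HNRNPA0 binds AU-rich elements of cytokine mRNAs. It had 10.13, 9.81, 10.10 and 10.54 in the high gain-high intake and 10.00, 9.85, 10.24 and 10.06 in the low gain-low intake steers, against 9.25, 9.89, 9.74 and 9.93 in the high gain-low intake and 9.74, 9.38, 10.06 and 10.09 in the low gain-high intake steers. High gain-low intake steer 1 and low gain-high intake steer 2 were the lowest, and all groups overlapped. The interaction was 0.66 (SE 0.28, adjusted p = 1 in limma, exact permutation p = 0.0256), and it was lost without steer 4 of high gain-high intake, 1 of high gain-low intake, 3 of low gain-low intake, or 1 or 2 of low gain-high intake (difference 0.51 to 0.63).

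**Figure D4:**
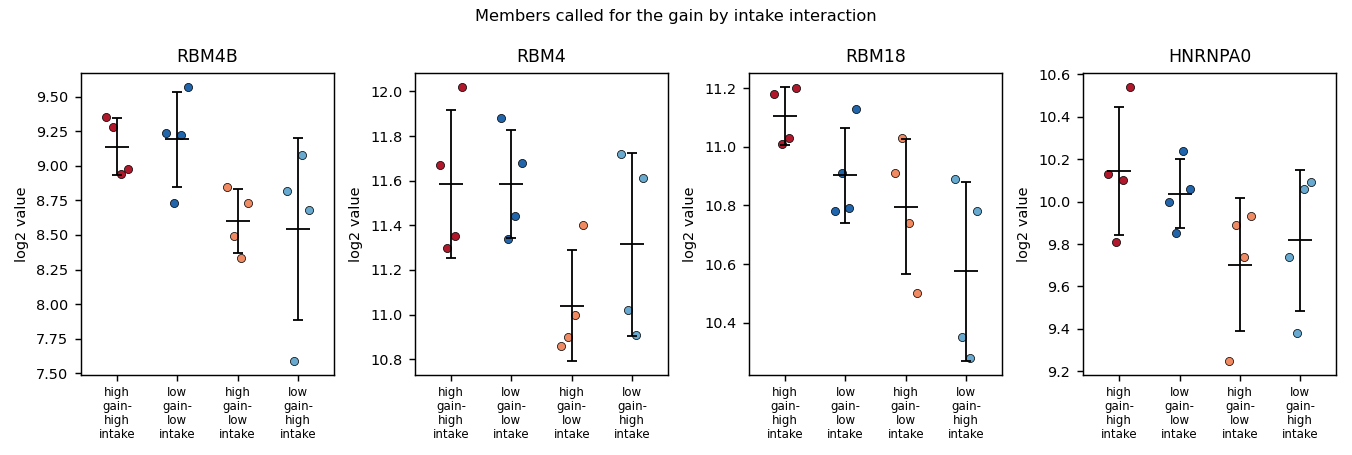
Log2 values (y axis) of RBM4B, RBM4, RBM18 and HNRNPA0 by group (x axis), 1 point per steer in order of its number, with the group mean and SD (bars, n = 4). The groups with gain and intake both high or both low, on the left of each panel, lie higher on average. The interactions are 1.19, 0.82, 0.63 and 0.66. An interaction is larger than the difference between the left and right pair of groups, whose means are 9.16 and 8.57 for RBM4B. A low gain-high intake steer is far below the rest for RBM4B (7.59).

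For gain, RBM43 and RBM47 were higher in high gain steers. RBM43, a protein with an RNA recognition motif of little described function, had 10.08, 9.97, 10.69 and 9.39 in high gain-high intake and 10.09, 10.22, 9.92 and 10.03 in high gain-low intake steers, against 9.65, 9.99, 9.35 and 9.08 in the low gain-high intake and 9.82, 9.71, 9.56 and 9.13 in the low gain-low intake steers. Of the 8 high gain steers, 5 lay above every low gain steer, and high gain-high intake steer 4 fell among the low gain values. The means were 10.05 in high gain and 9.54 in low gain steers, a difference of 0.51 (SE 0.17, adjusted p = 0.757 in limma, exact permutation p = 0.00979). The call held without any single steer.

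RBM47, a partner of APOBEC1 in the editing of apolipoprotein B mRNA, had 12.41, 12.59, 12.51 and 13.64 in high gain-high intake and 11.73, 11.32, 12.44 and 13.16 in high gain-low intake steers, against 11.87, 12.77, 10.89 and 11.58 in the low gain-high intake and 11.60, 11.43, 12.01 and 12.43 in the low gain-low intake steers. The steers numbered 4 of both high gain groups were the highest of the 16, and the groups overlapped. The gain difference was 0.65 (SE 0.30, exact permutation p = 0.0688) and was lost without any of 10 steers (difference 0.49 to 0.69). It held only without steers 1 or 3 of high gain-high intake, 1 or 2 of high gain-low intake, 4 of low gain-low intake or 2 of low gain-high intake. The high gain-high intake difference was 0.85 (SE 0.35, exact permutation p = 0.0352), but 0.57 without high gain-high intake steer 4, where it was no longer called (unadjusted p = 0.143).

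**Figure D5:**
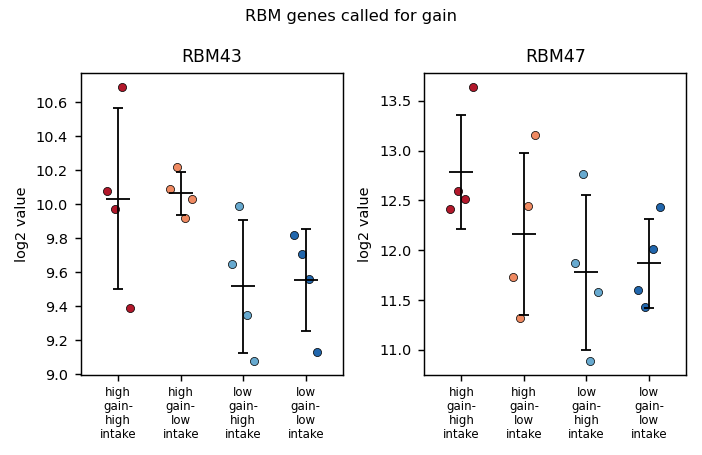
Log2 values (y axis) of RBM43 and RBM47 by group (x axis), 1 point per steer in order of its number, with the group mean and SD (bars, n = 4). The high gain groups are on the left, and for RBM43 the 8 high gain steers average 10.05 against 9.54 in the 8 low gain steers, while RBM47 spreads widely within every group and peaks at 13.64 in high gain-high intake steer 4.

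Among the spliceosome-associated RBM genes limma called 0 of 11 in any contrast at an unadjusted p under 0.05, against 3.40% to 6.06% of all features in the contrasts, shares so low that a count of 0 among 11 genes does not set them apart. Their median interaction was 0.07. RBM39, a splicing factor related to the U2AF subunit, had a low gain-low intake difference of 0.42 (unadjusted p = 0.068) and a gain difference of -0.27. RBM8A, a core protein of the exon junction complex, had a low gain-low intake difference of 0.23 (unadjusted p = 0.075). RBM5 and RBM10, splicing regulators of apoptosis genes, had interactions of 0.06 and -0.25, and RBM5 lies next to RBM6. RBM17, a splicing factor that recognises splice sites, had a high gain-high intake difference of 0.21 (unadjusted p = 0.103). RBM15, an adaptor of the enzyme that methylates adenosine in mRNA, had an interaction of 0.38 (unadjusted p = 0.249). RBM3, induced by mild cold, had 12.70, 12.64, 12.10 and 12.76 in the low gain-low intake steers, against 12.12 to 12.52 in the high gain-high intake, 11.64 to 12.57 in the high gain-low intake and 11.27 to 12.86 in the low gain-high intake steers. Its low gain-low intake difference of 0.36 (unadjusted p = 0.134) was not called. RBM20, a splicing factor of titin in heart, was dim, with 5.85 to 6.39 over all steers, and its high gain-low intake difference was -0.17 (unadjusted p = 0.078).

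A pair of dim genes were called in 1 group only, and were picked out after their values were seen. RBM44, described in germ cells in mouse, had 6.12, 6.25, 6.15 and 5.78 in the high gain-low intake steers, against 6.16 to 6.80 in the other 12, a difference of -0.27 (SE 0.12, exact permutation p = 0.0192) that was -0.17 without high gain-low intake steer 4. The call held only without steers 1 or 3 of high gain-high intake, 2 of high gain-low intake, or any steer of low gain-high intake. RBM24, a splicing regulator of muscle, had 7.66, 8.0, 8.20 and 7.57 in the low gain-high intake steers, against 7.34 to 7.76 in the other 12, a difference of 0.29 (SE 0.12, exact permutation p = 0.0192). It was lost without low gain-high intake steer 2 (difference 0.24) or steer 3 (difference 0.17). Both genes lie below the median feature level.

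Genes that work with these proteins were counted beside them. Of 34 core spliceosome genes measured, 27 had a positive interaction, against 47.2% of all features. Their median was 0.17, and only SF3B3 was called in the interaction (0.54), against 4.64% of all features. In other contrasts PRPF4 was called higher with high intake (0.17) and in low gain-high intake steers (0.21). SNRPF was called lower with high gain (-0.26). The median interaction was 0.22 for 8 exon junction complex genes (6 positive) and 0.01 for 10 RBM family genes that the rule left out (5 positive). It was -0.08 for 6 genes of the mRNA methylation complex (3 positive) and -0.12 for 5 nuclear exosome genes (2 positive). Among 17 hnRNP and related proteins under other symbols, 11 were positive and the median interaction was 0.10. SYNCRIP, known as hnRNP Q, was called in it (0.61), was lower in high gain-low intake steers (-0.41) and higher in the low gain-low intake steers (0.33), 3 of the calls that HNRNPH1 also had. In the low gain-low intake steers TARDBP, a regulator of splicing, was higher (0.37) and ELAVL1, a stabiliser of AU-rich mRNAs, lower (-0.32). Of 8 exon junction complex genes MAGOHB was called in the interaction (0.77) and in the low gain-high intake steers (-0.60), and of 5 nuclear exosome genes EXOSC3 was called in both (0.62 and -0.41). None of 6 genes of the mRNA methylation complex was called, which the 3.4% to 6.06% of all features called per contrast does not set apart. RBFOX2, once named RBM9 and thus outside the rule, was higher with high intake by 0.27 (SE 0.10, adjusted p = 1 in limma), with a difference of 0.31 in high gain-high intake and -0.30 in high gain-low intake steers.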

How the data were processed

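Affymetrix Bovine 1.1 ST arrays measured spleen RNA of 16 steers. The authors normalized probe signals for GC content, stretched them with signal space transformation, applied Robust Multichip Analysis, and deposited 1 log2 value per transcript cluster and steer. The submitters' processing notes name Affymetrix Expression Console and Transcriptome Analysis Console, with versions not given in the sources used here. Of 26773 features, 1776 whose IDs precede the first annotated ID were dropped. Of the 24997 kept, 18790 had 1 symbol, 385 several and 5822 none. Clusters of a symbol were averaged, giving 24651 features.

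The log2 values were fitted with limma 3.58.1 in R 4.3.3, lmFit and eBayes, with 4 group means and no further normalization, and p-values were adjusted by Benjamini-Hochberg over all features. The fit was tested on simulated data. Named genes had an unadjusted p under 0.05 in the F test, gain, intake, interaction or low gain-low intake contrast, or were of fixed interest. RBM44 and RBM24 were picked after their values were seen. Contrasts of genes given in full had a two-sided exact permutation test over steers, and its smallest p is 0.000549 for 4 of 16 steers (1820 arrangements) and 0.000155 for 8 (12870). The test shuffled all 16 steers freely, for the interaction too. It is therefore exact only if no group differed in any way, and not for the interaction alone where gain or intake also made a difference. The members and lists were chosen with earlier results of these data known, so no p here is independent of that choice. Alternatives were median centring, quantile normalization, ordinary least squares as in the study's methods, an intensity trend with robust moderation, array weights, clusters without averaging, features above the median level, and each steer left out. The labels describe each sample as 1 steer, so the replicate is the animal. The number of arrays limits the precision. RefSeq supplied symbols and gene order only.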

Additional observations from a re-analysis of the deposited data

Results flagged for a closer look

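Of 48 groups of 4 steers tested over the 12 genes that had a permutation test, 3 held a steer whose gap to its group exceeded Dixon's critical value, a test that marks about 1 in 20 groups by chance. RBM24 was 7.40 in low gain-low intake steer 1, below the 3 others. RBM44 was 6.80 in low gain-high intake steer 3, above the 3 others. RBM47 was 13.64 in high gain-high intake steer 4, above the 3 others.

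The intake difference of high gain steers differed from that of low gain steers, by an interaction term at an unadjusted p under 0.05, for 5 genes. The interaction was 1.19 for RBM4B, 0.82 for RBM4, 0.72 for HNRNPH1, 0.66 for HNRNPA0 and 0.63 for RBM18, and the limma adjusted p of each was 1.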

How the results depend on the processing

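For the 22 differences given in the report, 420 of 504 alternative values kept their direction and call, 84 lost the call and 0 turned their sign. On all 16 steers, 16 of 152 values lost the call, mostly those of HNRNPA2B1, HNRNPA3 and RBM47. Counts of called genes stayed within 1.5 times under most alternatives on all 16 steers. The exceptions were ordinary least squares, with 2 for gain and 1 for intake, array weights, with 5 for low gain-low intake, and features above the median level, with 1 for low gain-high intake. Leaving out single steers gave 2 to 5 genes in the F test, 2 to 7 for gain, 0 to 2 for intake, 4 to 7 for the interaction, 2 to 7 for high gain-high intake, 3 to 9 for high gain-low intake, 1 to 5 for low gain-low intake and 1 to 4 for low gain-high intake. The counts that moved by over 1.5 times were 5 in the F test without low gain-high intake steer 2, 7 for gain without steer 4 of that group, and 2 for gain without its steer 3, without high gain-high intake steer 4 or without low gain-low intake steer 2. Intake had 2 without high gain-high intake steer 2, and 1 without high gain-low intake steer 2, low gain-low intake steer 4 or low gain-high intake steer 1. High gain-high intake had 7 without its steer 2, and high gain-low intake had 3 without its steer 2. Low gain-low intake had 1 without its steer 1, and 5 without its steer 2, without steer 2 or 4 of high gain-high intake, or without steer 2 of low gain-high intake. Low gain-high intake had 4 without its steer 1 and 1 without its steer 3. Array weights brought 3 features and 0 of the 56 genes below 0.05 after adjustment in the low gain-low intake comparison. Leaving out low gain-low intake steer 2 brought 11 features below it in that comparison and 1 each in the F test and the interaction, leaving out high gain-high intake steer 4 brought 2 in that comparison, and leaving out low gain-low intake steer 4 brought 1 in every comparison, with 0 of the 56 genes each time. Calls over all features for gain were 644 higher and 851 lower, but 870 and 624 after centring and 737 and 701 after quantile normalization. For the interaction they were 606 and 539, against 719 and 416 after centring. For high gain-high intake they were 411 and 447, against 552 and 285, and for low gain-high intake 689 and 408, against 496 and 550. Among the 56 genes, gain had 2 higher and 2 lower, 3 and 1 after centring, and 1 and 2 after quantile normalization. No paired analysis was possible because the labels carry no replicate numbers or slaughter days.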
